A study of Mus musculus with 8 samples.

Results

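The genes described here encode 10 structural components of the basement membrane in the mouse aorta: the collagen IV chains Col4a1 and Col4a2, the laminin chains Lama4, Lama5, Lamb1, Lamb2 and Lamc1, the nidogens Nid1 and Nid2, and the perlecan core protein Hspg2. They were selected by name from a table of 48607 loci, by a rule that uses no measured value, although earlier results of these data were known when the group was put together, and all 10 had a row. Where a name occurred in several rows, which was so for 6 of the 10, the row with the most counts was taken. The RNA came from whole aortas of ApoE-/- mice, which lack apolipoprotein E and develop atherosclerotic plaques, and of NPRC-/-ApoE-/- mice, which also lack natriuretic peptide receptor C, the product of Npr3. Every mouse carried the ApoE deletion and received a Western diet, for 12 weeks in the study's methods. The receptor was removed from all tissues by a CRISPR-made frameshift in the first exon of Npr3, on a C57BL/6 background, so no cell type can be named as the site of the deletion. The methods describe purchased ApoE-/- mice as 8-week-old males, and the age and sex of the littermates sequenced here were not given separately in the sources used here.

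There were 5 libraries titled ApoE-/- and 3 titled NPRC-/-ApoE-/-, whereas the study's methods state 5 sequenced aortas for each genotype. The genotype entry of the labels contradicted the title in 4 of the 8. The libraries titled ApoE-/- 4 and 5 were entered as Nprc-/-Apoe-/-, and those titled NPRC-/-ApoE-/- 1 and 2 were entered as Apoe-/-. Groups below follow the title, and the main comparisons are also given by genotype entry. Npr3 itself did not separate the groups by either label. It was listed at 1.69, 0.93, 0.62, 1.01 and 1.67 FPKM (fragments scaled by transcript length and by the mapped fragments of the library) in ApoE-/- 1 to 5 and at 1.18, 1.39 and 1.13 FPKM in NPRC-/-ApoE-/- 1 to 3. Its log2 fold change was 0.10 (SE 0.28) by title and 0.16 by genotype entry, and because a frameshift need not remove the transcript, this level checks neither label.

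Each library held 62969165 to 86693276 counts, of which the 10 genes took 0.496 to 0.702%. Smooth muscle and endothelial markers were present in every library, with all 10 of 10 loci tested in both lists. The mean log2 CPM (counts scaled to the library total) of the smooth muscle list was 8.51 to 8.93 in the ApoE-/- libraries and 8.96 to 9.78 in the NPRC-/-ApoE-/- libraries, and that of the Schwann cell list was 3.37 to 3.59 against 2.08 to 2.63, so neither overlapped by title. In the smooth muscle list 10 of 10 loci were higher, 9 of them with an unadjusted p under 0.05 in edgeR, in the Schwann cell list 6 of 10 were tested and all 6 were lower, 4 with such a p, and in the macrophage list 10 of 10 were lower, 5 with such a p. Over all loci, 6.51% were higher and 7.13% lower with such a p. No marker was at 0 in all 8 libraries. The macrophage list spanned 6.79 to 8.22 against 6.01 to 7.25, the endothelial list 6.39 to 6.54 against 6.44 to 6.47 and the white adipocyte list 5.56 to 7.58 against 6.33 to 7.09. The skeletal muscle list lay between -2.52 and -1.61 in ApoE-/- 2, 3 and 4 and between 2.53 and 3.14 in the other 5 libraries. By genotype entry, the groups overlapped in all 6 lists.

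Basement membranes are thin sheets of matrix that underlie the endothelium and surround each smooth muscle cell of the arterial wall. Laminins, trimers of an alpha, a beta and a gamma chain, and collagen IV, in vessels mainly a trimer of alpha1 and alpha2 chains, each polymerise into a network. Nidogens and perlecan bridge these networks, and cells hold on to them through integrins, dystroglycan and other receptors.

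Col4a1 and Col4a2 lie head to head on chromosome 8 and are read in opposite directions from a common start region. In GRCm38, Col4a1 (ENSMUSG00000031502) runs from 11198423 to 11312826 on the minus strand and Col4a2 (ENSMUSG00000031503) from 11312805 to 11449287 on the plus strand in GENCODE M21, so the annotated genes overlap by 22 bases. The RefSeq promoter windows (GRCm38.p6, from 250 bases before to 50 bases after the RefSeq start, each 5′ to 3′ in the direction of its gene) are shown because the levels of both genes moved together across the libraries, as described below. Hspg2, on chromosome 4, had the same highest and lowest libraries as both, and a part of the common start region in these levels was not tested. The Col4a1 window is chr8:11312777-11313076 on the minus strand and the Col4a2 window is chr8:11312555-11312854 on the plus strand, and capitals mark the 78 bases, 11312777 to 11312854, that lie in both.
Col4a1: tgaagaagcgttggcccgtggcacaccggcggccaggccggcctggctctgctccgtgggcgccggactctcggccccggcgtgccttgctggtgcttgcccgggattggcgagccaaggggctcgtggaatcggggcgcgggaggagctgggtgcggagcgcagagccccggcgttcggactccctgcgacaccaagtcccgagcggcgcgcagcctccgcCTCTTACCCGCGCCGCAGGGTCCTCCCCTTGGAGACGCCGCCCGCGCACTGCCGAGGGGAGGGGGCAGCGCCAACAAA
Col4a2: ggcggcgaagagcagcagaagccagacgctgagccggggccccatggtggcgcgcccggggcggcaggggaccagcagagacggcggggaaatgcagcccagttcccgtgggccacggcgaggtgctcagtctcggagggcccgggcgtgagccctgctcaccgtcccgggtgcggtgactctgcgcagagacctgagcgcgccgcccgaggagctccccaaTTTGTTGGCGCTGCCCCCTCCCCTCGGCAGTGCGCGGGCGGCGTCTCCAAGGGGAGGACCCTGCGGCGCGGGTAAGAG
The windows held 74.0 and 73.7% G and C, against a median of 52.7% over all 32851 RefSeq promoter windows. Entries were found for 7 of the 10 genes. The motif GGGCGG (a GC box), searched on both strands, was found in 6 of these 7 windows and in 35.7% of all windows, and once within the shared stretch. The 6 windows with it held 63.7 to 74.0% G and C, and that of Lamb2, without it, held 44.0%. The share over all windows is not matched for G and C content. The letters CCAAT were found in 4 of the 7 and in 37.4% of all, including the windows of Col4a1 and Col4a2, and TATAAA in 0 of the 7 and in 13.6% of all. Matches of different motifs may overlap, and a match is a description of the sequence only.

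Per length, the 10 genes covered a wide range of levels. FPKM rests on the length given to each row, so an order by counts can differ. Col4a2 had more counts than Lamb2 in every library (53251 against 36447 in ApoE-/- 1), while its FPKM was lower. Hspg2, the large heparan sulphate proteoglycan perlecan, was the highest, at 115.58 to 171.2 FPKM with a mean of 142 over the 8 libraries. Col4a1 followed with a mean of 94.0, then Lamb2 with 77.1 and Col4a2 with 53.4 FPKM. Lama5 and Lamc1 had means of 29.2 and 26.3, Nid1 and Lama4 of 19.4 and 14.9, and Lamb1 and Nid2 of 7.57 and 3.81 FPKM. Neighbours in this order kept their places in 8 of 8 libraries in 6 of the 9 steps. Col4a1 was above Lamb2 in 7 of 8, Nid1 above Lama4 in 6 of 8 and Lama5 above Lamc1 in 5 of 8, and those neighbours did not differ beyond their spread. Between Hspg2 and Col4a1, Lamb2 and Col4a2, and Lamb1 and Nid2 the ranges over all libraries also overlapped, although the order held within each library. Lamc1, the gamma chain shared by most laminins, varied least, with a highest level 1.2 times its lowest, and Nid2 varied most, with a ratio of 2.94.

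**Figure D1:**
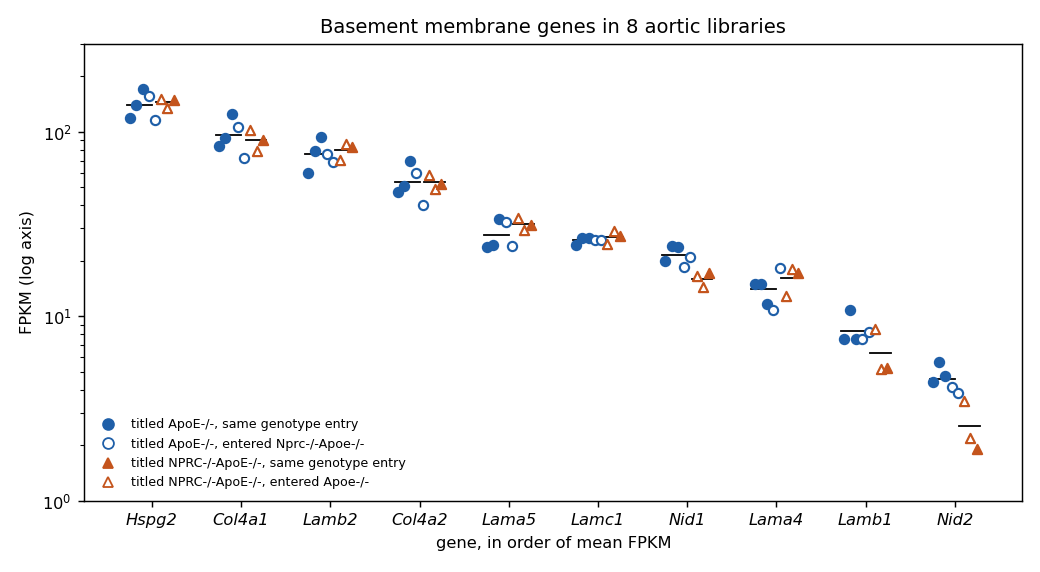
FPKM of each of the 10 genes in the 8 libraries, on a log axis, with genes ordered by their mean. Circles are libraries titled ApoE-/- (n = 5), triangles those titled NPRC-/-ApoE-/- (n = 3), open symbols are libraries whose genotype entry contradicts the title, and lines are group means. Symbols of the titled groups separate for Nid1 (18.45 and above against 17.1 and below) and Nid2 (3.86 and above against 3.49 and below).

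The comparison by title asks how the transcripts of these genes differed when the receptor was absent in addition to apolipoprotein E. With edgeR's quasi-likelihood test and Benjamini-Hochberg adjustment over the 20506 loci tested, all 10 genes were tested and 0 had an adjusted p under 0.05, as was so for 0% of all loci. An unadjusted p under 0.05 was found for 2 of the 10, both nidogens and both lower in NPRC-/-ApoE-/-, against 7.13% of all loci that were lower with such a p. None of the 10 was higher with such a p, against 6.51% of all loci. The criterion of the study (fold change over 2 or under 0.5, p under 0.05 without adjustment) was met by 0 of the 10 and by 3.47% of all loci. Nid2 met it when NPRC-/-ApoE-/- 1 was left out, as did 7.97% of all loci, and in the 4 libraries with no conflict between their labels, as did 8.85% of all loci. DESeq2 gave an adjusted p under 0.05 for 1 of the 10, Nid2, and for 3.17% of all loci (650), and limma on log2(FPKM + 1) for 0 of the 10 and 0.00975% of all loci (2). The fold changes were split into 5 lower and 5 higher, with a median log2 fold change of 0.03 against -0.01 over all loci. In whole tissue, fewer cells of a type and less RNA per cell cannot be told apart.

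The nidogens are sulphated glycoproteins that link laminin to collagen IV. In GRCm38, Nid2 (ENSMUSG00000021806) lies at chr14:19751265-19811787 and Nid1 (ENSMUSG00000005397) at chr13:13437551-13512269, both on the plus strand, and the rows cover the whole GENCODE M21 genes, exons and introns. Nid2 was listed at 4.43, 5.65, 4.73, 4.16 and 3.86 FPKM in ApoE-/- 1 to 5 and at 3.49, 2.2 and 1.92 FPKM in NPRC-/-ApoE-/- 1 to 3. All 3 NPRC-/-ApoE-/- libraries lay below the lowest ApoE-/- library, although NPRC-/-ApoE-/- 1 was close to it. The group means were 4.57 ± 0.686 FPKM (SD, n = 5) and 2.54 ± 0.837 FPKM (SD, n = 3). The log2 fold change was -0.84 (SE 0.22), with an unadjusted p of 0.0038 and an adjusted p of 0.255 in edgeR, and over the alternatives the adjusted p spanned 0.0188, in DESeq2, to 1.00, by genotype entry. The fold change was -0.69 to -1.11 whichever single library was left out, with an unadjusted p of at most 0.0202 in edgeR.

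Nid1, the more abundant nidogen, was listed at 20.03, 23.93, 23.7, 18.45 and 21.12 FPKM in ApoE-/- 1 to 5 and at 16.58, 14.37 and 17.1 FPKM in NPRC-/-ApoE-/- 1 to 3. Again every NPRC-/-ApoE-/- library was below every ApoE-/- library. Its log2 fold change was -0.40 (SE 0.15), with an unadjusted p of 0.0230 and an adjusted p of 0.316 (edgeR). The unadjusted p was 0.0565 without ApoE-/- 3, 0.0517 without NPRC-/-ApoE-/- 1 and 0.119 without NPRC-/-ApoE-/- 2. The nidogens were the only 2 of the 10 genes whose titled groups did not overlap, both lower, against 3.69% of all loci that did not overlap and were lower. No gene of the 10 was without overlap and higher, against 3.72% of all loci.

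By genotype entry the nidogens did not separate. The log2 fold change was -0.28 (SE 0.34) for Nid2 and -0.04 (SE 0.20) for Nid1, and that of Nid2 was -0.50 without ApoE-/- 4 and -0.02 without NPRC-/-ApoE-/- 3. The groups overlapped for all 10 genes, where 1.2% of all loci did not overlap in either direction. An unadjusted p under 0.05 was found for 0 of the 10, against 0.697% of all loci that were lower and 0.614% that were higher with such a p. In the 4 libraries with no conflict between their labels, 3 against 1, the log2 fold change was -1.28 for Nid2 and -0.32 for Nid1, with edgeR's unadjusted p of 0.00557 and 0.284. That fit assumes that the lone NPRC-/-ApoE-/- library varies like the others. The smooth muscle and Schwann cell lists also separated by title, and their part in the values of the nidogens was not tested.

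**Figure D2:**
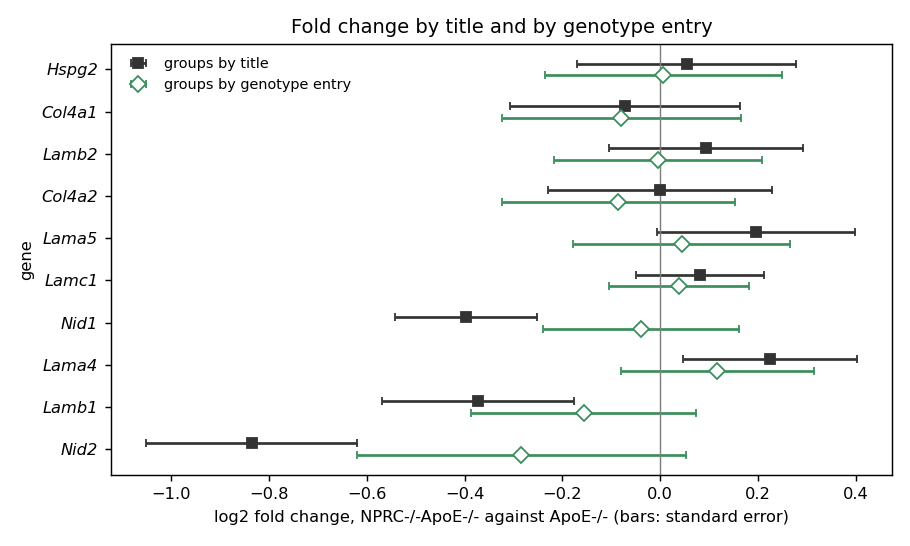
Log2 fold change of NPRC-/-ApoE-/- against ApoE-/- for each gene, by title (squares) and by genotype entry (diamonds), with bars of 1 standard error from edgeR. By title Nid2 lies at -0.84 and Nid1 at -0.40, and by genotype entry they lie at -0.28 and -0.04.

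Laminin beta chains pair with the gamma chain in each trimer. Lamb1, the beta1 chain, was listed at 7.53, 10.79, 7.52, 7.51 and 8.21 FPKM in ApoE-/- 1 to 5 and at 8.59, 5.18 and 5.23 FPKM in NPRC-/-ApoE-/- 1 to 3. NPRC-/-ApoE-/- 2 and 3 lay below all ApoE-/- libraries while NPRC-/-ApoE-/- 1 lay above 4 of the 5. The log2 fold change was -0.37 (SE 0.20, adjusted p = 0.429 in edgeR), and its unadjusted p was 0.0895 with all libraries and 0.00642 without NPRC-/-ApoE-/- 1, where the fold change was -0.63. Without NPRC-/-ApoE-/- 2 or 3 the fold change was -0.22 and -0.27, with an unadjusted p of 0.331 and 0.272 in edgeR. Lamb2, the beta2 chain, was listed at 60.04, 78.47, 94.03, 75.74 and 69.15 FPKM in ApoE-/- 1 to 5 and at 70.49, 85.95 and 82.97 FPKM in NPRC-/-ApoE-/- 1 to 3. These groups overlapped, and the log2 fold change was 0.09 (SE 0.20, adjusted p = 0.856 in edgeR), or 0.01 without ApoE-/- 1 and 0.23 without ApoE-/- 3.

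The alpha chains give laminins their receptor binding, and alpha4 and alpha5 are those of the vessel wall endothelium. Lama5 was listed at 23.69, 24.49, 33.91, 32.44 and 24.04 FPKM in ApoE-/- 1 to 5 and at 34.2, 29.24 and 31.33 FPKM in NPRC-/-ApoE-/- 1 to 3. ApoE-/- 3 and 4 were as high as the NPRC-/-ApoE-/- libraries, and the other 3 were lower. Lama4 was instead lower in ApoE-/- 3 and 4 than in the other ApoE-/- libraries, at 14.89, 14.99, 11.69, 10.82 and 18.31 FPKM in ApoE-/- 1 to 5, and lay at 12.93, 18.14 and 17.24 FPKM in NPRC-/-ApoE-/- 1 to 3. The log2 fold changes were 0.20 (SE 0.20) for Lama5 and 0.22 (SE 0.18) for Lama4, with edgeR adjusted p-values of 0.685 and 0.590, and with single libraries left out they spanned 0.13 to 0.32 and 0.15 to 0.38. The row of Lama5 also carries the name of the microRNA gene Mir7005, so its counts cannot be assigned to Lama5 alone. Lamc1 was listed at 24.29 to 26.64 FPKM in ApoE-/- and 24.56 to 29.16 FPKM in NPRC-/-ApoE-/-, with a log2 fold change of 0.08 (SE 0.13) that spanned 0.05 to 0.16 with single libraries left out. The stated end of the Lamc1 row, 153239326 on chromosome 1, falls short of the gene's end at 153332786 in GENCODE M21, although the transcripts the row lists reach it.

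The collagen IV and perlecan genes showed small differences between the groups and large ones within them. Col4a1 was listed at 84.3, 92.24, 124.93, 105.9 and 72.19 FPKM in ApoE-/- 1 to 5 and at 103.03, 79.34 and 90.19 FPKM in NPRC-/-ApoE-/- 1 to 3. Col4a2 was listed at 47.4, 50.65, 69.82, 59.63 and 39.99 FPKM in ApoE-/- 1 to 5 and at 58.21, 49.26 and 52.28 FPKM in NPRC-/-ApoE-/- 1 to 3. In both genes ApoE-/- 3 was the highest and ApoE-/- 5 the lowest of all 8 libraries, so the NPRC-/-ApoE-/- libraries lay inside the ApoE-/- range. Hspg2 was listed at 119.63, 140.63, 171.2, 156.43 and 115.58 FPKM in ApoE-/- 1 to 5 and at 150.37, 135.21 and 149.47 FPKM in NPRC-/-ApoE-/- 1 to 3, with the same highest and lowest libraries. The log2 fold changes were -0.07 (SE 0.23) for Col4a1, -0.0009 (SE 0.23) for Col4a2 and 0.05 (SE 0.22) for Hspg2. Without ApoE-/- 3 they were 0.09, 0.16 and 0.18, and without ApoE-/- 5 they were -0.18, -0.11 and -0.03, so these data do not fix their direction.

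**Figure D3:**
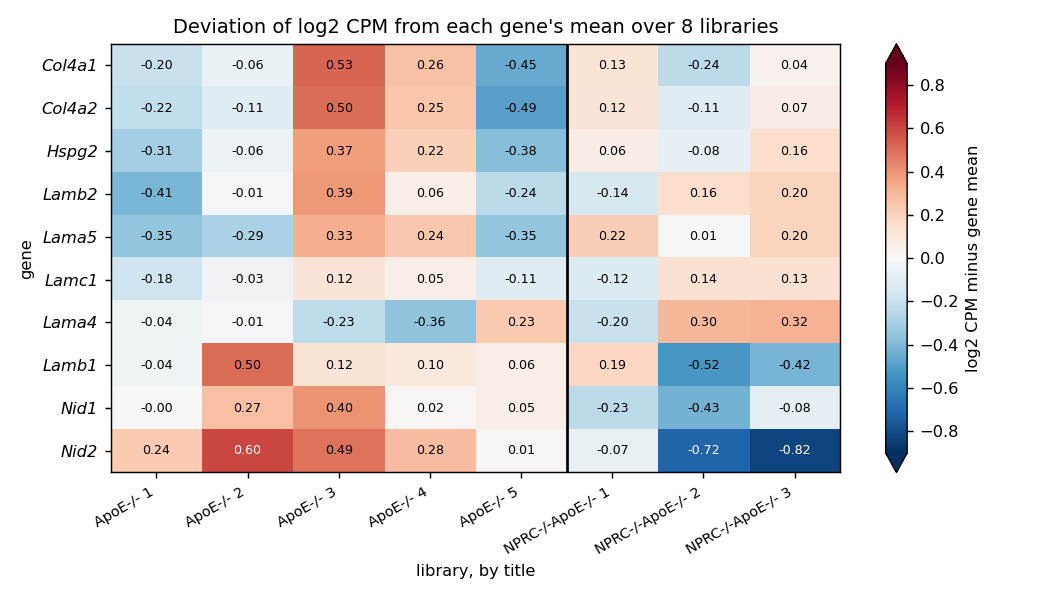
Deviation of log2 CPM from each gene's mean over the 8 libraries (rows: genes, columns: libraries by title, colour and number: log2 difference). ApoE-/- 3 is high and ApoE-/- 5 low for Col4a1, Col4a2 and Hspg2, and NPRC-/-ApoE-/- 2 and 3 are low for Nid2 and Lamb1.

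The genes did not move as a single unit across the libraries. The Pearson r of each gene's log2 CPM with the mean of the other 9, given as a description over 8 libraries, was 0.90 for Hspg2, 0.89 for Col4a1, 0.87 for Col4a2, 0.76 for Lamb2 and 0.65 for Lama5. It was 0.49 for Lamc1, 0.42 for Nid1, 0.14 for Nid2, 0.06 for Lamb1 and -0.62 for Lama4. The mean standardised level of the 10 genes was highest in ApoE-/- 3 (1.03) and lowest in ApoE-/- 1 (-0.66), and the NPRC-/-ApoE-/- libraries lay between these, at -0.09, -0.31 and 0.16. The loci most like this mean were Trappc11, Mir6386, Nfatc4, Gm15710 and Arrb1, with r of 0.97, 0.97, 0.97, 0.96 and 0.96, and 144 of the 18462 tested loci with a single gene name had an r above 0.9.

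Co-variation was tested in 4 pairs of related genes over the 8 libraries. Col4a1 and Col4a2 had a Pearson r of 0.98 (exact permutation p = 0.00015, adjusted over 4 pairs p = 0.0006) and a Spearman rho of 0.98 (exact permutation p = 0.0004). Without the 2 libraries farthest from the median, ApoE-/- 3 and 5, r was 0.95, and after each titled group's mean was removed it was 0.99. Nid1 and Nid2 had an r of 0.78 (exact permutation p = 0.0210, adjusted p = 0.0421) and a rho of 0.83 (exact permutation p = 0.0154). Without ApoE-/- 3 and NPRC-/-ApoE-/- 2 their r was 0.63, and within titled groups it was 0.37, so the relation did not hold to the same extent within the groups. Leaving out NPRC-/-ApoE-/- 2 gave r = 0.67 (exact permutation p = 0.0742), leaving out ApoE-/- 2 gave p = 0.0520 and leaving out ApoE-/- 3 gave p = 0.0516 in the same exact test. Lamb1 and Lamc1 (r = -0.50, rho = -0.43, exact permutation p = 0.217 and 0.299) and Lama4 and Lama5 (r = -0.39, rho = -0.57, exact permutation p = 0.332 and 0.151) showed no relation past the threshold. Without their 2 farthest libraries r was 0.22 for Lamb1 and Lamc1 and -0.54 for Lama4 and Lama5, and within titled groups it was -0.41 and -0.70.

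**Figure D4:**
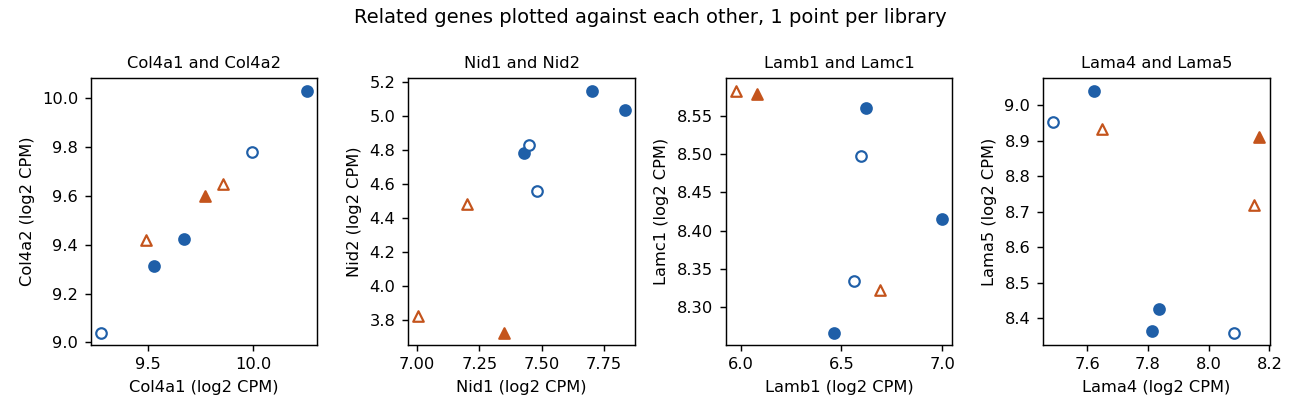
Log2 CPM of 4 pairs of related genes, with 1 point per library and symbols as in the plot of levels. Col4a1 and Col4a2 lie along a line (r = 0.98), while the low corner of Nid1 and Nid2 (r = 0.78) holds the NPRC-/-ApoE-/- libraries.

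Ratios of related chains do not depend on the scaling between libraries. Col4a1 to Col4a2, in FPKM, was 1.778, 1.821, 1.789, 1.776 and 1.805 in ApoE-/- 1 to 5 and 1.77, 1.611 and 1.725 in NPRC-/-ApoE-/- 1 to 3. The groups did not overlap, and the difference in log2 ratio was -0.077 (two-sided exact permutation p = 0.0357, the smallest that 5 against 3 allows, and 0.143 adjusted over the 4 ratios). By genotype entry the difference was 0.013 (exact permutation p = 1.0). With any library left out the design can no longer reach 0.05, since its smallest p is 0.0571 or 0.0952, and the difference was -0.038 without NPRC-/-ApoE-/- 2 and -0.106 without NPRC-/-ApoE-/- 1. The Col4a2 row starts at 11312669, before the end of the Col4a1 row at 11312826. Without use of strand, reads of the stretch that both rows cover could be counted for either gene.

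Lamb2 exceeded Lamb1 in every library. The ratio of Lamb1 to Lamb2 was 0.125, 0.138, 0.080, 0.099 and 0.119 in ApoE-/- 1 to 5 and 0.122, 0.060 and 0.063 in NPRC-/-ApoE-/- 1 to 3, a difference in log2 ratio of -0.51 (exact permutation p = 0.143). The ratio of Lama4 to Lama5 was between 0.334 and 0.762 in all libraries, with a log2 difference of -0.01 between the groups (exact permutation p = 0.929). Nid1 exceeded Nid2 by 4.24 to 5.47 times in ApoE-/- and by 4.75, 6.53 and 8.91 times in NPRC-/-ApoE-/- 1 to 3, a log2 difference of 0.47 (exact permutation p = 0.107). Adjusted over the 4 ratios, these exact permutation p-values were 0.190, 0.929 and 0.190. By genotype entry the log2 differences were -0.15 for Lamb1 to Lamb2, 0.06 for Lama4 to Lama5 and 0.28 for Nid1 to Nid2 (exact permutation p = 0.679, 0.893 and 0.357).

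**Figure D5:**
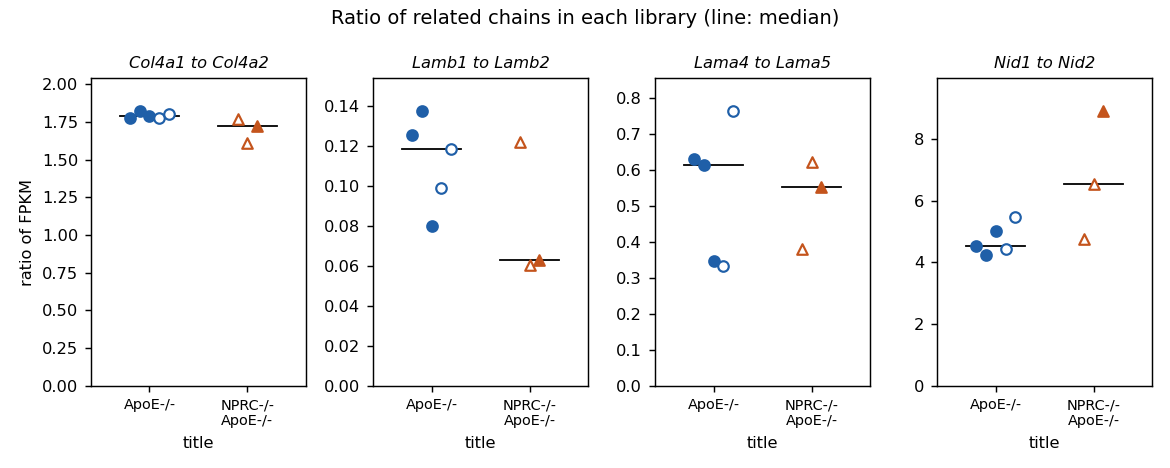
Ratio of FPKM between related chains in each library, by title, with axes from 0, the median as a line and symbols as in the plot of levels. Col4a1 to Col4a2 spans 1.611 to 1.821 over all libraries, and Nid1 to Nid2 reaches 8.91 in NPRC-/-ApoE-/- 3.

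The 3 further lists of genes of the same pathway below were chosen with earlier results of these data known. Of 25 other basement membrane genes, 18 were tested and 2 had an unadjusted p under 0.05, both higher by title. Npnt, the integrin ligand nephronectin, was listed at 23.36 to 34.13 FPKM in ApoE-/- and 29.81, 44.65 and 54.04 FPKM in NPRC-/-ApoE-/- 1 to 3, with a log2 fold change of 0.67 (SE 0.21, unadjusted p = 0.0111, adjusted p = 0.285 in edgeR). Lamc3, the gamma3 laminin chain, had a log2 fold change of 0.74 (SE 0.27, adjusted p = 0.316 in edgeR). The most abundant were Sparc, a matricellular collagen-binding protein, with a log2 fold change of -0.42 (SE 0.26), and Col18a1, the precursor of endostatin, with 0.38 (SE 0.21). The list's median log2 fold change was 0.21, and the count with an unadjusted p under 0.05 was 1 without ApoE-/- 2, 4 without NPRC-/-ApoE-/- 1 and 0 without NPRC-/-ApoE-/- 3. Over all loci that share was 13.6% with all libraries and 10.2, 21.6 and 6.7% with the same libraries left out. The log2 fold change by genotype entry was 0.30 for both Npnt and Lamc3.

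Of the 12 receptors for laminin and collagen IV, all were tested and 4 had an unadjusted p under 0.05 by title, against 13.6% of all loci. Itga7, the laminin-binding integrin chain of muscle, was listed at 7.62, 7.5, 6.86, 6.36 and 9.37 FPKM in ApoE-/- 1 to 5 and at 10.5, 11.37 and 12.29 FPKM in NPRC-/-ApoE-/- 1 to 3. All NPRC-/-ApoE-/- libraries were above all ApoE-/- libraries, as was so for 3.72% of all loci. Itga7 had a log2 fold change of 0.63 (SE 0.13, unadjusted p = 0.000995, adjusted p = 0.222 in edgeR), beside a smooth muscle list that was higher in the same libraries and whose part in this value was not tested. The laminin-binding chain Itga3 had a log2 fold change of 0.69 (SE 0.19), the laminin-binding chain Itga6 of -0.91 (SE 0.31) and the collagen-binding chain Itga2 of -0.94 (SE 0.38), and edgeR's adjusted p was 0.255, 0.305 and 0.338. The most abundant were Itgb1, the common beta1 integrin chain, at 0.21 (SE 0.15), and Bcam, a receptor for the laminin alpha5 chain, at 0.34 (SE 0.22). The list's median was 0.16, and 7 receptors had an unadjusted p under 0.05 without NPRC-/-ApoE-/- 1 and 2 without either NPRC-/-ApoE-/- 2 or NPRC-/-ApoE-/- 3, where the share of all loci was 21.6, 6.5 and 6.7%. Grouped by genotype entry, the log2 fold changes were 0.13 for Itga7, 0.08 for Itga3, -0.08 for Itga6 and -0.01 for Itga2.

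Of 12 genes for collagen folding and crosslinking, 12 were tested and 1 had an unadjusted p under 0.05 by title, against 13.6% of all loci. P4ha2, a prolyl 4-hydroxylase subunit, had a log2 fold change of 0.47 (SE 0.15, unadjusted p = 0.0115, adjusted p = 0.285 in edgeR). P4hb, the beta subunit of the same enzyme, had -0.31 (SE 0.30) and Serpinh1, the collagen chaperone HSP47, 0.56 (SE 0.33). The median of the list was -0.12, and 2 of its genes had an unadjusted p under 0.05 without ApoE-/- 5, NPRC-/-ApoE-/- 1 or NPRC-/-ApoE-/- 2, against 18.7, 21.6 and 6.5% of all loci. By genotype entry the log2 fold change of P4ha2 was 0.20, and 0 genes of each of these lists had an unadjusted p under 0.05. With edgeR 0 genes of any of the lists had an adjusted p under 0.05 by title, and with DESeq2, which called 3.17% of all loci, this held for 2 receptors.

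The table also held 7 rows on the opposite strand of 5 of the 10 genes, Col4a1, Col4a2, Lama4, Lamc1 and Hspg2, which were examined after the table had been seen. The kit marked strand, but whether the counting used it was not stated, so reads of a gene and of its opposite-strand row cannot be told apart. The row opposite Col4a1 held 10.7 to 23.0% as many counts as Col4a1, that opposite Col4a2 11.2 to 21.2% and the larger row opposite Lama4 9.95 to 60.4%. The row opposite Hspg2, chr4:137468954-137500779 in GRCm38, had a log2 fold change of 0.58 (SE 0.19, unadjusted p = 0.0134, adjusted p = 0.290 in edgeR) at 1.94 to 4.26 FPKM, and the other 6 rows had an unadjusted p above 0.05. By genotype entry 0 of the 7 had an unadjusted p under 0.05.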

How the data were processed

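Poly(A) RNA of whole aortas was sequenced in 8 libraries. The authors trimmed reads (cutadapt 1.9 and FastQC in the submitters' processing notes, build GRCm38), mapped them with HISAT2 and assembled loci with StringTie. The authors deposited unnormalized whole-number counts per locus, and FPKM values, which scale counts by length and mapped fragments. How strand was used in counting is not given in the sources used here. The table had 0 unmapped sample columns.

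Loci that reached 1 FPKM in 3 or more libraries were tested with edgeR 4.0.16 (R 4.3.3, TMM, quasi-likelihood, Benjamini-Hochberg). Standard errors are the absolute log2 fold change over the root of F. Log2 CPM used a prior count of 2. DESeq2 1.42.0 and limma 3.58.1 were alternatives, and ratios and correlations used exact permutation (scipy 1.17.1). The test was tested on simulated data, where it recovered fewer of the changed genes than the mark first set, which was then lowered, so a lack of adjusted calls does not show a lack of change. The labels number the libraries but name no animals, so p-values measure the spread between libraries. The closest 2 libraries differed beyond sampling noise (mean chi-square per locus 92.7). The biological coefficient of variation was 0.327 with groups by title, and what limits precision was not tested. The members were selected by name and the lists by known function, with earlier results of these data known. The named genes were the 10 members, in each list those with an unadjusted p under 0.05 and the 2 most abundant, the 5 loci most like the members' mean, and Npr3.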

Additional observations from a re-analysis of the deposited data

Results flagged for a closer look

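The log2 ratio of Col4a1 to Col4a2 in NPRC-/-ApoE-/- 2, a library entered as Apoe-/-, was 0.688 and stood far below the other 4 libraries entered as Apoe-/-, with a gap of 0.768 of the group's range against a limit of 0.71 for 5 samples. Of 28 groups of 5 libraries examined (10 genes and 4 ratios, by title and by genotype entry) this was the 1 with such a library, and chance gives about 1 in 20, or 1.4 of 28.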

How the results depend on the processing

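The conflict between title and genotype entry and the small number of NPRC-/-ApoE-/- libraries, 3, limit these results. By genotype entry, genes with an unadjusted p under 0.05 numbered 0 among the 10 genes and 0 in each other list, the log2 fold change of Lamb2 was -0.0045, and the log2 ratio differences were 0.013 for Col4a1 to Col4a2 and 0.055 for Lama4 to Lama5. DESeq2 called 1 of the 10 at an adjusted p under 0.05 (Nid2, 0.0188), and 650 of all 20506 loci, against 0 in edgeR. With matching labels only, 3 libraries against 1, the log2 fold change was -1.28 for Nid2 and -0.32 for Nid1. A mean of at least 5 FPKM leaves out Nid2, and 1 of the 9 genes then tested had an unadjusted p under 0.05, with 2 lower. This filter gave such a p for 5 of 14 other basement membrane genes and 0 of 7 folding genes, against 17.3% of all loci. Summing all rows of a name gave 4 of 18 other basement membrane and 2 of 12 folding genes, against 13.7% of all loci. The cause of these changes was not tested.

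After titled group means were removed, same-numbered libraries correlated at -0.31, -0.11 and 0.007, so no pairing by replicate number was seen. With 6 libraries this check is weak and cannot show that pairing was absent. With the replicate block over 6 libraries, 1 other basement membrane gene had an unadjusted p under 0.05, against 8.84% of all loci. In the same libraries without the block, 2 folding genes had such a p, against 12.9% of all loci. The criterion of fold and p was met by 800 loci with the block and by 917 without it. No library correlated best with the library of its own number. The block changed the call of none of the 10 genes.

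Of 199 alternative fold changes of the 10 genes by title, 17 had the opposite sign, all in genes (Col4a1, Col4a2, Hspg2 and Lamb2) without an unadjusted p under 0.05 in any alternative. Among loci with a mean of 5 FPKM or more, Col4a1 was 0.033. Col4a2 was 0.0069 in DESeq2 and with median-ratio scaling, 0.016 in limma with either pseudocount, 0.11 at a mean of 5 FPKM or more, 0.012 with no scaling factor and 0.028 with summed rows. By genotype entry 32 of 159 had the opposite sign. With no scaling factor Lama5 was -0.0026, Lamc1 -0.0051 and Hspg2 -0.040. Lamb2 was 0.010 in DESeq2 and with median-ratio scaling and 0.016 among loci with a mean of 5 FPKM or more. Lamc1 was -0.014 with summed rows, and Hspg2 was -0.032 in limma with either pseudocount.

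With each library left out in turn, 1 to 2 of the 10 had an unadjusted p under 0.05 by title. Such a p was found for 0 to 4 other basement membrane genes, 2 to 7 receptors and 1 to 2 folding genes. Over all loci the share with such a p ran from 6.5% without NPRC-/-ApoE-/- 2 to 21.6% without NPRC-/-ApoE-/- 1. Of the 10 genes, 3 to 6 were lower. The fewest lower, 3, came without ApoE-/- 3, ApoE-/- 4 or NPRC-/-ApoE-/- 2. Fold changes spanned -0.175 to 0.0889 for Col4a1, -0.106 to 0.161 for Col4a2 and -0.0269 to 0.180 for Hspg2. By genotype entry 2 to 9 of the 10 were lower, and fold changes spanned -0.22 to 0.10 for Col4a1, -0.22 to 0.10 for Col4a2, -0.01 to 0.32 for Lama4, -0.0349 to 0.211 for Lama5, -0.10 to 0.11 for Lamb2, -0.0151 to 0.103 for Lamc1, -0.120 to 0.075 for Nid1 and -0.0752 to 0.172 for Hspg2, with -0.50 to -0.02 for Nid2 and -0.26 to -0.01 for Lamb1. Log2 ratio differences spanned -0.106 to -0.038 for Col4a1 to Col4a2 and -0.158 to 0.203 for Lama4 to Lama5, and r of Nid1 and Nid2 spanned 0.67 to 0.91. The alternatives for correlations were chosen after seeing the data.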
